A study of Mus musculus with 48 samples.

Results

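The genes described here encode the phase II conjugation enzymes of mouse liver. Within these families genes were taken by symbol and not by any measured value: of the 24453 genes with exon values, 63 carry the symbol of a glutathione S-transferase (Gst classes a, k, m, o, p, t and z, 21 genes), a microsomal glutathione S-transferase (Mgst, 3 genes), a UDP-glucuronosyltransferase (Ugt1, Ugt2 and Ugt3, 20 genes) or a sulfotransferase (Sult, 19 genes). RNA came from the livers of wild type and nono-/- mice, all of the C57BL/6 strain and 14 weeks old. Light and dark phases of 12 h each were kept for both genotypes, and for one week before collection food was offered in the dark phase alone. Collection ran around the day in steps of 2 h, at 12 zeitgeber times (ZT, where ZT0 is lights on), each sample was a pool of 2 mice, and every pool gave 1 library of total RNA and 1 library of RNA from isolated nuclei. This makes 4 groups of 12 libraries, 48 in all. The product of Nono binds RNA and DNA and sits in nuclear bodies called paraspeckles. The labels do not say how its allele was made. No time point has a second pool of the same genotype, so the p-values below measure the spread between pools of 2 mice around a daily curve.

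Phase II enzymes attach glutathione, glucuronic acid or sulfate to drugs, steroid and thyroid hormones, bilirubin, bile acids and reactive aldehydes, which makes these compounds soluble enough to leave the body in bile or urine. The liver carries most of this work, and hepatocytes are its main site. Many of the genes lie in clusters of similar genes, while Mgst1, Mgst2 and Mgst3 lie apart on chromosomes 6, 3 and 1. Several of the genes are textbook targets of the receptors CAR, PXR and AhR, of the oxidative stress factor NRF2 and of the PAR bZip factors through which the circadian clock reaches detoxification.

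Values are FPKM, reads per kilobase of exon or intron scaled to library depth. Differences between genotypes are log2 differences after scaling of the libraries to a common median gene, while the FPKM and the counts of time points at which a genotype was higher are as deposited. Reads on exons of total RNA are mainly those of finished mRNA, and reads on introns in nuclei those of RNA not yet spliced. Libraries held 9.91 M to 28.83 M reads, as inferred from the values. Exons of Nono itself were read at 8.74 to 10.7 FPKM in total RNA of wild type and at 0 to 0.091 FPKM in that of Nono-/-, so the target gene fitted every label. All 7 hepatocyte markers were read in every group, with a median summed exon level of 41330 FPKM in total RNA of wild type against 40980 FPKM without Nono. Introns took a median of 23.9% of the reads in wild-type and 20.1% in Nono-/- total RNA, and 81.1% and 82.2% in nuclear RNA. The wild-type nuclear library of ZT22 stood apart with 75.1%, the others of its group being at 77.6% or more. The nuclear RNA Malat1 took between 7.37% and 10.3% of exon reads in wild-type nuclei and between 10.1% and 16.9% in Nono-/- nuclei. Intron share and Malat1 share therefore moved with genotype, and their part in the genotype differences below cannot be told apart from that of genotype. Kupffer cell markers moved too: 5 of 6 were called higher in Nono-/- total RNA exons (median log2 difference 0.37), with a summed level of 54.4 to 151 FPKM in wild type against 75.5 to 184 FPKM, and whether this bears on the conjugation genes was not tested. In bulk RNA, fewer cells of a type and less RNA per cell cannot be told apart.

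In total RNA the conjugation genes together made up 1.71% of exon reads in wild type (median of 12 libraries, range 1.52% to 2.11%) and 2.00% in Nono-/- (1.76% to 2.24%), with the Ugt1a entries counted as 1 locus. In nuclear RNA the share was 0.653% and 0.703%. Microsomal Mgst1 stood far above all others. It is a membrane-bound transferase and peroxidase of the endoplasmic reticulum and outer mitochondrial membrane, and it was read at 2473 to 3539 FPKM in wild-type total RNA.

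Among the soluble glutathione S-transferases, wild-type total RNA was led by Gsta3 of the alpha class, with a median of 1065 FPKM (626 to 1204). Gstz1, the maleylacetoacetate isomerase of tyrosine breakdown, followed with 347 FPKM (316 to 407). The mu class enzyme Gstm1 reached 292 FPKM (193 to 330) and the pi class enzyme Gstp1 245 FPKM (150 to 313), and these 2 overlapped in their ranges, as Gstz1 and Gstm1 did, while Gsta3 lay above all 3. Gstt1, a theta class enzyme that acts on small halogenated compounds, stood lower at 112 FPKM (74.8 to 157). Of the 21 genes of this family 19 passed the filter of 0.5 FPKM on the mean over both genotypes in total RNA exons.

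The UDP-glucuronosyltransferases filled the middle of the range. Ugt2b5 had 391 FPKM in wild-type total RNA (280 to 517), Ugt2b36 362 FPKM (273 to 516), Ugt2b1 258 FPKM (220 to 331) and Ugt2b34 234 FPKM (188 to 301), and neighbours in this order did not separate by their ranges. These Ugt2b enzymes glucuronidate steroids and other lipophilic compounds. The 8 Ugt1a entries share their last exons on chromosome 1 (mm10, from 88055411 to 88220002 on the plus strand), so their exon FPKM of 192 to 294 (medians) count the same reads again and again. Reads above those of the lowest full-length entry in each library, mostly Ugt1a10, give a lower limit for an entry's own first exon, since that entry is at 0 by construction and its own part is taken off the others. By that measure Ugt1a1, the bilirubin-conjugating enzyme, had 255 RPM (reads scaled to library depth) in wild-type total RNA (209 to 303), Ugt1a6a, which acts on phenols, had 41.1 (35.8 to 47.4), Ugt1a9 33.3 (14.6 to 51.8), Ugt1a5 17.7 (13.8 to 27.0) and Ugt1a2 and Ugt1a7c 1.25 and 0.384. Ugt1a6b was left out of this measure because its entry ends earlier. In Nono-/- total RNA the order was the same, with 249.2 RPM for Ugt1a1 and 46.6 RPM for Ugt1a6a.

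Among the sulfotransferases, Sult2a8, which sulfates bile acids in mouse liver, had 407 FPKM in wild-type total RNA (287 to 746), Sult1a1, which sulfates phenols, 143 FPKM (121 to 195), and Sult1d1, which acts on catecholamines, 55.2 FPKM (39.0 to 102). Of the 19 genes 12 fell below the filter in total RNA exons. Sult1c1, Sult2a3 and Sult2a5 were listed at 0 in all 24 total RNA libraries. Sult3a1 and several Sult2a genes are known for high levels in female mouse liver, and all libraries here carried transcripts of the 4 Y-linked marker genes (summed level 37.3 to 106 FPKM) with at most 0.302 FPKM of Xist. Across all families 46 of the 63 genes passed the filter in total RNA exons, 40 in nuclear exons, 40 in total introns (at least 0.1 FPKM) and 41 in nuclear introns. Transcripts of 16 genes were over 90% identical to another of the set, which leaves the split of their reads uncertain: Gsta1 with Gsta2 (97.2%), Gstp1 with Gstp2 (94.2%), Ugt2a1 with Ugt2a2 (96.2%), Ugt3a1 with Ugt3a2 (91.6%), Ugt2b5, Ugt2b37 and Ugt2b38, and Sult2a1 to Sult2a5. The genes next to the limit in total RNA exons were Gstp2 at a mean of 0.747 FPKM, inside, and Sult1e1 at 0.246 FPKM, outside.

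**Figure D1:**
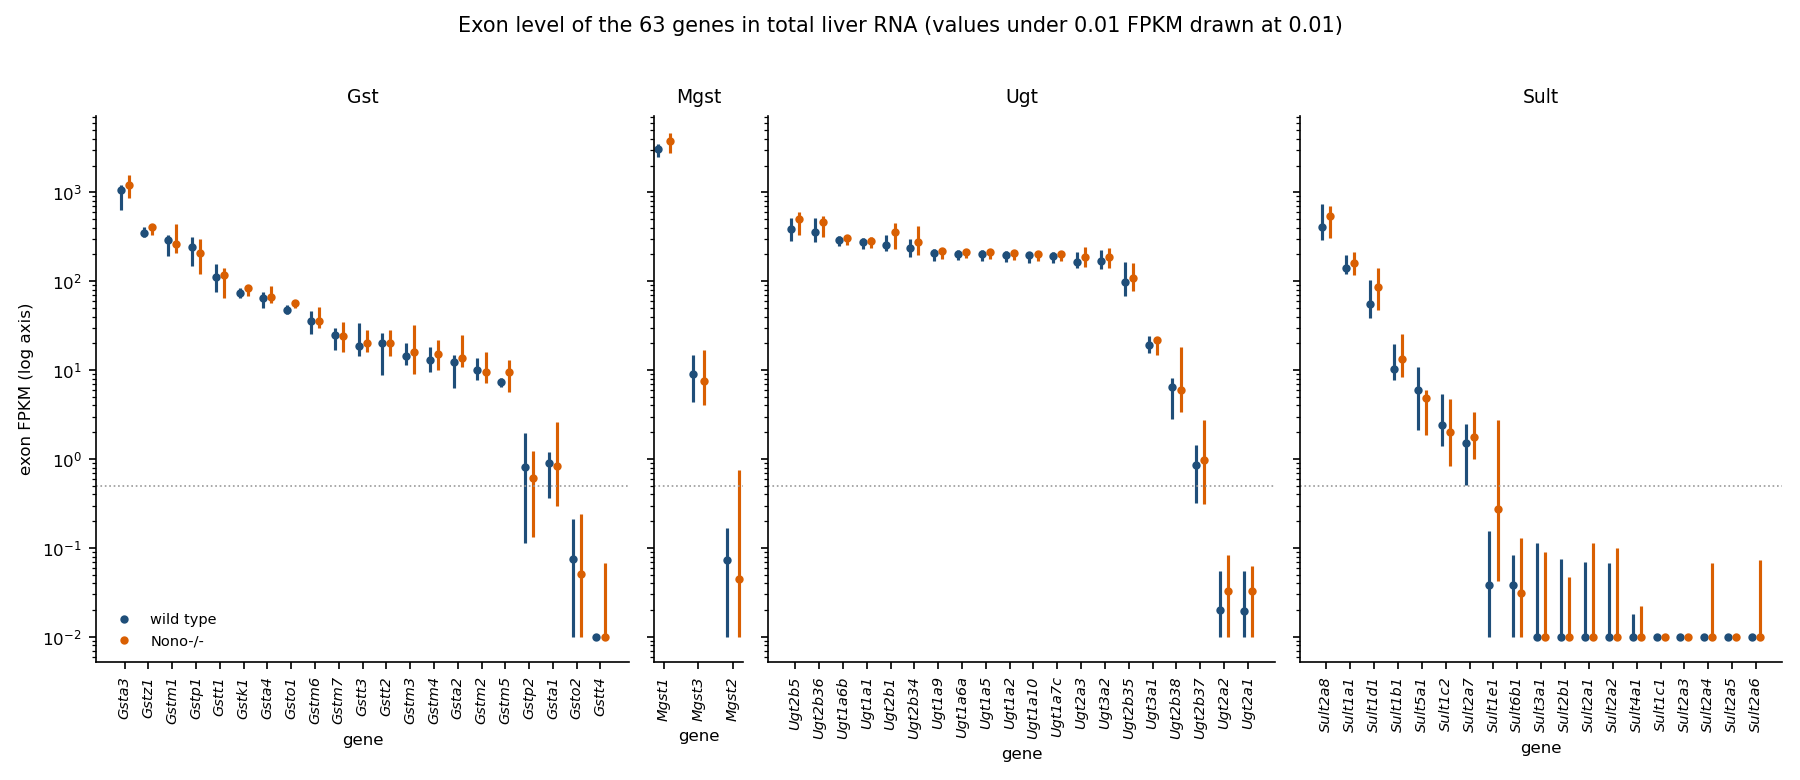
Exon FPKM of the 63 genes in total RNA on a log axis, by family and in order of level, with the median (point) and the range (line) of 12 wild-type (blue) and 12 Nono-/- (orange) libraries; the dotted line is the filter of 0.5 FPKM. Mgst1 stands at a wild-type median of 3043 FPKM, and 12 of the 19 sulfotransferase genes lie below the filter.

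The main daily pattern of these genes was in the mu class. Nuclear introns of 6 Gstm genes that lie side by side on chromosome 3 were lowest around the end of the light phase and climbed through the dark phase in both genotypes. Between the genotypes, relative to the median gene, 5 of 46 genes rose in Nono-/- livers and 0 fell in total RNA exons. Over all genes 4.45% rose and 6.48% fell there. In nuclear RNA exons 5 rose and 7 fell, 12.5% and 17.5% of those tested, near the 15.7% and 18.6% of all genes.

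The Gstm genes occupy 149 kb of chromosome 3 (mm10, from 107895854 to 108044859). Gstm7, Gstm6, Gstm3, Gstm2, Gstm1 and Gstm4 lie in this order on the minus strand, and Gstm5 lies at the end next to Gstm7 on the plus strand. They encode the mu class, cytosolic transferases that conjugate epoxides and other electrophiles. The 250 bases before the start of Gstm7 (chr3:107931818-107932067), Gstm6 (chr3:107943735-107943984), Gstm3 (chr3:107969175-107969424) and Gstm2 (chr3:107986421-107986670), all on the minus strand of GRCm38.p6 and taken from RefSeq, are printed 5′ to 3′ because these 4 genes had the widest daily range of nuclear intron signal. Capitals mark CCAAT on either strand, a motif chosen after the windows had been read and no part of the other motifs below.
Gstm7: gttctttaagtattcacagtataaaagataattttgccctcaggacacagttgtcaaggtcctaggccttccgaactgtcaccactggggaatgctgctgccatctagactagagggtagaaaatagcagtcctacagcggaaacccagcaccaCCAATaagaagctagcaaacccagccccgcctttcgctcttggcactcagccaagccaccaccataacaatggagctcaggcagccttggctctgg
Gstm6: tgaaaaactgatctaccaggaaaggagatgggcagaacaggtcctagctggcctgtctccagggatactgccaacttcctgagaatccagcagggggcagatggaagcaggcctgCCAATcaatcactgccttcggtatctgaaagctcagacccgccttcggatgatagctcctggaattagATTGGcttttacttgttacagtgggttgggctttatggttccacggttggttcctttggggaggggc
Gstm3: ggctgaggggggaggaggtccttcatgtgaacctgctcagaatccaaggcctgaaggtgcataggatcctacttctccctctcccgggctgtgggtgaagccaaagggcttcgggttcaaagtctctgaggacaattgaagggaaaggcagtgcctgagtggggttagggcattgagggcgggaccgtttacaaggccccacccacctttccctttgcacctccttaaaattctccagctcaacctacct
Gstm2: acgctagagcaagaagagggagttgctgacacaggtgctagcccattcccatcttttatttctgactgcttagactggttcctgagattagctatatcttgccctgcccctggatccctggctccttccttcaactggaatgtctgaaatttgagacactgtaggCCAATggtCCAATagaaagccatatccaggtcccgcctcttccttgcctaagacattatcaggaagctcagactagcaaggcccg
CCAAT stood in 5 of the 7 Gstm windows (71.4%), in 20 of the 55 windows found for the conjugation genes (36.4%) and in 33.8% of all 32536 RefSeq windows. Gstm3 and Gstm5 had no match, and Gstm3 was among the 4 widest swings. Across 250 bases before to 50 after the start, the E-box CACGTG was in 0 of 55 windows (7.17% of all 32544), the D-box TTATGNAA in 4, those of Gstt1, Ugt1a9, Ugt1a10 and Ugt2b1 (7.27% against 3.39%), and the antioxidant response element core TGACNNNGC in 3, those of Gsta3, Gstm5 and Mgst1 (5.45% against 12.4%). Each motif was searched on both strands, and a match is a run of letters only. Windows use the RefSeq start site nearest the start of the gene entry. For Gstt1 that site lay 853 bases from the entry's start and for Gstm7 72 bases. The Gstm windows were 41.0% to 50.9% identical in pairs, so the genes do not share 1 copied promoter window.

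Gstm7 nuclear introns lay between 0.023 FPKM at ZT8 and 2.36 FPKM at ZT18 in wild type (median 0.807) and between 0.032 FPKM at ZT6 and 2.00 FPKM at ZT22 in Nono-/- (median 0.760). In both genotypes the 4 libraries of ZT6 to ZT12 were all below 0.1 FPKM and those of ZT16 to ZT2 all above 0.7 FPKM. A curve with a 24 h period fitted to the log2 values gave a peak-to-trough fold of 31.5 in wild type (adjusted p = 7.3e-06) and 24.4 in Nono-/- (adjusted p = 2.17e-05, limma), with peaks at ZT21.1 and ZT21.5. Both lowest values, 0.023 and 0.032 FPKM, lie under the 0.05 FPKM added before the log2. The size of the fold therefore depends on that setting and on few reads.

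Gstm3 introns ran from 0.065 FPKM at ZT8 to 4.88 FPKM at ZT22 in wild type and from 0 at ZT12 to 2.97 FPKM at ZT22 in Nono-/-, a fitted fold of 26.9 and 16.2. Gstm6 introns ran from 0.074 FPKM at ZT8 to 3.82 FPKM at ZT22 in wild type and from 0.064 FPKM at ZT12 to 2.24 FPKM at ZT22 in Nono-/-, a fold of 15.99 and 10.74. For Gstm2 the folds were 12.3 and 9.37, with the highest library at ZT22 in both genotypes (1.93 and 1.14 FPKM). The lowest libraries of all 3 genes lay between ZT6 and ZT12, up to the hour at which food became available.

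The 2 genes at the far end of the row swung less. Gstm1, the most abundant member of the class, ran from 1.27 FPKM at ZT8 to 14.2 FPKM at ZT22 in wild type and from 1.604 FPKM at ZT12 to 7.64 FPKM at ZT22 in Nono-/-, a fold of 5.45 and 2.87. Gstm4 gave 6.37 and 3.95. Fitted peaks of all 6 genes lay between ZT20.7 and ZT22.1. The calls of all 6 held in both genotypes without any single time point, ZT22 included, and under every other setting tried for rhythms. Folds were lower in Nono-/- for each of the 6 genes, but the test of the difference in rhythm passed for none of them (smallest adjusted p over the conjugation genes 0.74). Gstm5 introns were below the filter in nuclear RNA.

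Lowest values of Gstm7, Gstm3 and Gstm6 were near or under the 0.05 FPKM added before the log2, so the size of their folds is uncertain. A fold of 10 or more was rare. In nuclear introns it was reached with a called rhythm by 51 of 12055 genes in wild type (0.423%), 4 of them Gstm genes, and by 40 genes in Nono-/- (0.332%), 3 of them Gstm genes. The neighbours of the row did not share it: of 9 tested genes within 200 kb that are no conjugation genes, 0 had a called rhythm in wild type and 1, Ahcyl1, in Nono-/- (adjusted p = 0.0192, fold 1.41), and the largest fold among them was 2.07 and 2.12, at 4933431E20Rik, which overlaps Gstm5 on the other strand.

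The swing shrank from nuclear introns to mRNA. For Gstm7 the fitted fold was 31.5 in nuclear introns, 7.09 in nuclear exons, 4.19 in total RNA introns and 1.54 in total RNA exons of wild type, and 24.4, 8.02, 3.31 and 1.82 in Nono-/-. Total RNA exons of Gstm7 lay between 16.8 FPKM at ZT8 and 29.8 FPKM at ZT2 in wild type and between 15.8 FPKM at ZT16 and 34.9 FPKM at ZT22 in Nono-/-, with fitted peaks at ZT23.5 and ZT1.5. Gstm4 mRNA had a fold of 1.70 and 1.71 and peaked near ZT3. Gstm3 and Gstm2, with intron folds above 9, had total exon folds of 1.26 and 1.12 in wild type that did not pass the test (adjusted p = 0.559 and 0.784, limma).

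**Figure D2:**
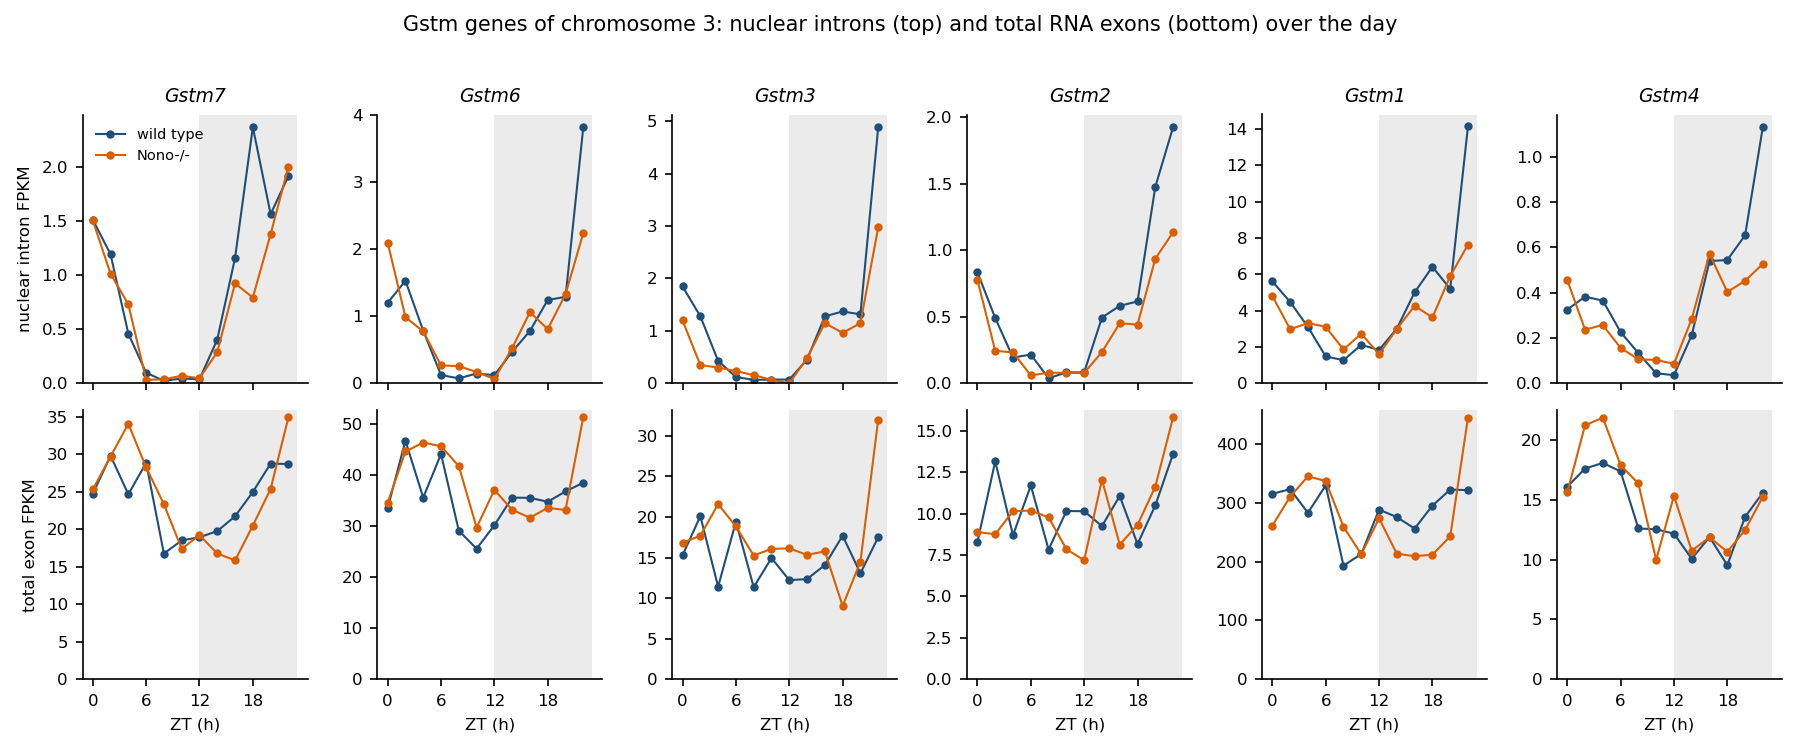
FPKM of 6 Gstm genes at 12 zeitgeber times in nuclear introns (top) and total RNA exons (bottom), wild type in blue and Nono-/- in orange, 1 library a point, dark phase shaded. Nuclear introns are lowest between ZT6 and ZT12 in both genotypes, down to 0 for Gstm3 but not under 1.27 FPKM for Gstm1, and are higher in the dark, while total RNA exons of Gstm7 stay between 15.8 and 34.9 FPKM.

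With the Gstm row included, 18 of the 41 genes tested had a called rhythm in nuclear introns of wild type and 19 in Nono-/-, 15 of them in both, where 20.7% and 31.7% of all genes were called. Both counts hold the 6 Gstm genes, and also Ugt1a9 and Ugt1a10, whose introns overlap and share reads. No count was made without them. The median peak-to-trough fold was 1.83 in wild type and 1.95 in Nono-/-, against 1.33 and 1.41 over all genes. The 8 Ugt1a entries each count in these medians. Of the 18 in wild type 10 peaked between ZT18 and ZT24, 6 between ZT12 and ZT18 and 2 between ZT6 and ZT12. Sult5a1 and Gstt2 were the 2 daytime genes: Sult5a1 had a fold of 4.67 with a peak at ZT8.1 (3.91 and ZT9.6 in Nono-/-), and Gstt2, a theta class enzyme, 2.95 with a peak at ZT6.6 (3.88 and ZT8.1). Sult5a1 nuclear introns were highest at ZT8 in both genotypes, at 3.37 and 2.72 FPKM.

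Gsta3 and Gstt1 peaked early in the dark, and Ugt3a1 late. Gsta3 introns ran from 10.4 FPKM at ZT4 to 61.6 FPKM at ZT16 in wild type and from 4.55 FPKM at ZT4 to 68.4 FPKM at ZT14 in Nono-/-, with fitted peaks at ZT13.6 and ZT14.5. The wild-type call of Gsta3 was lost without any 1 of 9 time points. Ugt3a1, which uses N-acetylglucosamine as its sugar, had a fold of 2.74 and 2.79 and peaked at ZT21.2 and ZT22.2, close to the Gstm genes. Gstt1 had a fold of 1.56 and 2.38 with peaks at ZT14.4 and ZT13.3. The difference in rhythm passed for 0 of the 41 genes and for 0% of all genes in limma, and for 4 and 800 at an unadjusted p under 0.05, so a rhythm called in 1 genotype only is not shown to differ. With 24 h and 12 h terms together the count in Nono-/- was 12.

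In total RNA exons 10 of 46 genes had a called rhythm in wild type and 9 in Nono-/-, 5 of them in both, where 31.6% and 29.6% of all genes were called. The median fold of 1.33 and 1.32 was that of all genes (1.38 and 1.37). Sult1c2 swung most, between 1.39 FPKM at ZT2 and 5.40 FPKM at ZT8 in wild type and between 0.832 FPKM at ZT2 and 4.78 FPKM at ZT10 in Nono-/-, with a fold of 2.79 and 2.70 (adjusted p = 0.00503 and 0.00731). Sult2a8, Sult1b1, which sulfates thyroid hormones, Ugt2b36 and Ugt2b35 peaked near ZT9 in wild type, with folds of 1.85, 1.72, 1.61 and 1.74. Gstt3 peaked at ZT19.3 with a fold of 1.91, and Gstt2 at ZT14.3 with a fold of 2.00. The wild-type count fell to 6, 5 and 6 without ZT8, ZT18 or ZT20. The calls of Sult2a8, Ugt2b36 and Ugt2b35 were each lost without any 1 of 5 time points (those 3, ZT12 or ZT22), that of Sult1b1 without any 1 of 9 (all but ZT10, ZT12 and ZT14), and that of Gsta3 without ZT0, ZT10 or ZT18, while those of Sult1c2, Gstm4, Gstm7, Gstt2 and Gstt3 held. The count was 5 with 24 h and 12 h terms together. Here too the difference in rhythm passed for 0 of 46 genes and for 0% of all genes (2 and 1207 at an unadjusted p under 0.05, limma). The 2 were Gstm7 (unadjusted p = 0.0386) and Gstt2 (unadjusted p = 0.0173), both with an adjusted p of 0.462.

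On average over the time points, mRNA of 5 conjugation genes was called higher in Nono-/- livers. Of 46 genes tested in total RNA exons 5 rose (10.9%) and 0 fell, where 4.45% of all genes rose and 6.48% fell. The median log2 difference, Nono-/- minus wild type, was 0.11 over the 46 genes and 0.00 over all genes, and 36 of the 46 differences were positive. The 8 Ugt1a entries, which share reads, are 8 of the 36 (0.03 to 0.06), and without them the median was 0.15 and 28 of 38 were positive. At an unadjusted p under 0.05 the count was 15, in limma as throughout. No count over all genes was made at that threshold, so 15 cannot be set beside a share of all genes.

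Mgst1 was read at 2473, 3043 and 3539 FPKM (lowest, median and highest of 12) in wild-type and at 2736, 3824 and 4617 FPKM in Nono-/- total RNA. It was higher in Nono-/- at 11 of 12 time points, and the groups overlapped. The log2 difference was 0.28 ± 0.08 (SE), 1.22-fold (adjusted p = 0.0213). Gsto1, which reduces dehydroascorbate and methylated arsenic, had 42.8, 47.5 and 54.4 FPKM in wild type and 50.5, 56.6 and 61.2 FPKM in Nono-/-. It was the only 1 of the 5 to be higher at 12 of 12 time points, and its log2 difference was 0.23 ± 0.06 (adjusted p = 0.0209). Gstz1 had 316, 347 and 407 FPKM against 332, 412 and 440 FPKM, a log2 difference of 0.17 ± 0.05 (adjusted p = 0.0225, higher at 11 of 12 time points). The reads of Gstz1 cannot be separated from those of Pomt2, which overlaps it on the other strand.

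Gstm5, the mu class gene on the plus strand, had 6.41, 7.28 and 8.26 FPKM in wild type and 5.67, 9.46 and 12.9 FPKM in Nono-/-, a log2 difference of 0.34 ± 0.08 (adjusted p = 0.0137, higher at 10 of 12 time points). Its overlap with 4933431E20Rik holds for this value too. Sult1d1 had 39.0, 55.2 and 102 FPKM against 46.9, 86.5 and 141 FPKM, a log2 difference of 0.45 ± 0.15 that only just passed (adjusted p = 0.0499, higher at 11 of 12 time points). Gstm5 held without any single time point. Gsto1 was lost without ZT22 and Gstz1 without ZT8, Mgst1 was lost without any 1 of 5 time points (ZT0 and ZT12 to ZT18) and Sult1d1 without any 1 of 9, and the count was 3 without ZT0, ZT12, ZT14, ZT16 or ZT18. With each time point as a block, a pairing of the genotypes by ZT, 9 genes rose: Ugt2b1 (log2 difference 0.32, adjusted p = 0.0391), Ugt2b5 (0.31, 0.0254), Ugt2b36 (0.26, 0.0371) and Gsta3 (0.20, 0.0466) joined the 5. With intron share as a covariate the count was 0, and over all genes 39 rose and 34 fell, against 505 and 736 without it.

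In nuclear RNA exons 6 soluble glutathione S-transferases and Mgst3 fell in Nono-/-, and 4 Ugt2b genes and Sult2a8 rose. Of 40 genes 5 rose and 7 fell, where 15.7% of all genes rose and 18.6% fell, a share near that of all genes. Those that fell were Gstp1, Gstm1, Gstm2, Gstt1, Gstt2 and Gstt3 of the soluble glutathione S-transferases and Mgst3, a microsomal enzyme able to form leukotriene C4. Those that rose were Ugt2b5, Ugt2b34, Ugt2b35 and Ugt2b36 of the glucuronosyltransferases and Sult2a8. None of the Ugt1a or Ugt3a genes passed. The median log2 difference was 0.08 over the 40 genes and 0.01 over all genes, and it was -0.13 over the 32 genes left without the 8 Ugt1a entries, so its sign rests on counting that locus 8 times.

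Gstp1 had 7.34, 11.5 and 27.4 FPKM in wild-type nuclei and 2.49, 6.68 and 10.2 FPKM in Nono-/- nuclei. It was lower in Nono-/- at 11 of 12 time points, and its log2 difference was -0.81 ± 0.12, 1.75-fold lower (adjusted p = 0.000608). Gstm1 had 5.79, 15.4 and 37.1 FPKM in wild type and 2.88, 9.80 and 12.2 FPKM in Nono-/-, a log2 difference of -0.70 ± 0.15 (adjusted p = 0.00347). The highest wild-type library of both genes was that of ZT22, the library with the low intron share, and the lowest Nono-/- library that of ZT2. Both calls held without any single time point, those 2 included.

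Gstt1 had 2.28, 4.6 and 11.9 FPKM against 0.973, 3.08 and 6.88 FPKM, a log2 difference of -0.54 ± 0.14 (adjusted p = 0.00844), and it too held without any single time point. Gstt3 (-0.41 ± 0.13, adjusted p = 0.0215) and Gstt2 (-0.62 ± 0.23, adjusted p = 0.0434) of the same class fell as well. Gstm2 was lower in Nono-/- at 12 of 12 time points, before scaling, with a log2 difference of -0.55 ± 0.17 (adjusted p = 0.02). Mgst3 was also lower at 12 of 12, but at levels of 0.147 to 1.96 FPKM in wild type and 0 to 0.639 FPKM in Nono-/-, where single reads count (-0.84 ± 0.30, adjusted p = 0.0346). Other abundant enzymes did not pass: Mgst1 had a log2 difference of 0.12 ± 0.09 and Gstz1 of -0.01 ± 0.06.

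Ugt2b34 had 9.36, 12.6 and 23.6 FPKM in wild-type and 9.82, 16.7 and 21.2 FPKM in Nono-/- nuclei. It was higher at 11 of 12 time points (log2 difference 0.45 ± 0.13, adjusted p = 0.0128) and was called without any single time point. Sult2a8 had the largest rise, 0.54 ± 0.18 (adjusted p = 0.0273), with 35.0, 81.9 and 132 FPKM against 49.2, 103 and 182 FPKM. Ugt2b35, Ugt2b5 and Ugt2b36 had log2 differences of 0.48 ± 0.16, 0.43 ± 0.13 and 0.34 ± 0.12. Ugt2b5 shares over 90% of its transcript with Ugt2b37 and Ugt2b38, which were read at far lower levels, so a part of its reads may be theirs. Without ZT6 or ZT18 the count of genes that rose was 1, without ZT2 2 and without ZT10 3, and without ZT6, ZT12 or ZT18 the count that fell was 3, 4 and 4. With the time points as a block Ugt2b1 (0.39, adjusted p = 0.0444) rose as well, and Gstm7 (-0.35, 0.0391) and Gsta4 (-0.34, 0.0459), which detoxifies 4-hydroxynonenal, fell.

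In nuclear exons the rises rest on the scaling to the median gene, while the 7 genes that fell were called lower without scaling too. Without it the median of all genes was -0.20, 0 conjugation genes rose and 12 fell, and over all genes 10.1% of the calls were higher against 45.7% with it. With the intron share as a covariate 0 rose and 2 fell, Gstm1 and Gstp1. Over all genes 442 rose and 456 fell with it, against 1648 and 1956 without. With the share of exon reads of the 10 most read genes as a covariate, which is led by Malat1 in nuclei and moved with genotype (14.1% to 16.9% in wild type, 15.9% to 23% in Nono-/-), 0 rose and 0 fell. Over all genes 0 rose and 4 fell with that covariate.

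**Figure D3:**
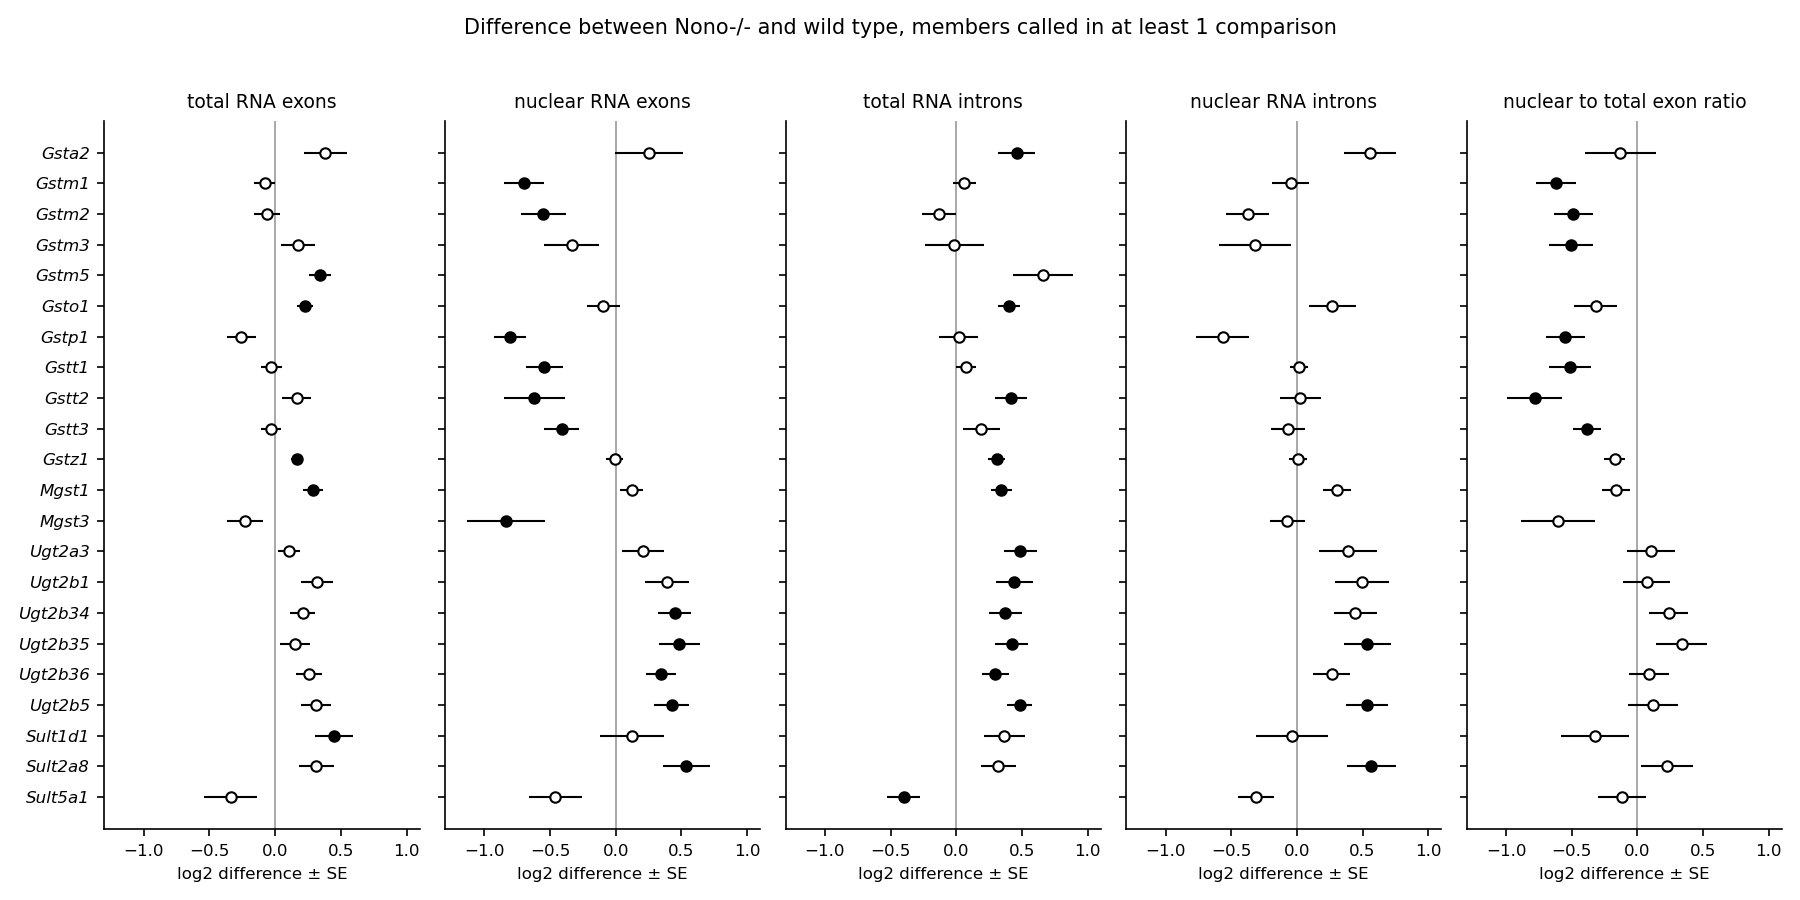
Log2 difference between Nono-/- and wild type ± SE for 22 conjugation genes called in at least 1 comparison, relative to the median gene; filled points passed an adjusted p of 0.05 and absent points were below the filter. The filled points of nuclear exons are 6 soluble glutathione S-transferases and Mgst3 left of 0 and 4 Ugt2b genes and Sult2a8 right of 0, while Gsta2 lies right of 0 and Gstz1 near 0 without passing; without scaling, 0 of the genes pass as higher in nuclear exons and total introns.

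In nuclear introns Ugt2b5, Ugt2b35 and Sult2a8 rose, a share no higher than that of all genes. Of 41 genes tested 3 rose and 0 fell, where 7.91% of all genes rose and 10.2% fell, and 11 of the 41 had an unadjusted p under 0.05 in limma. No count over all genes was made at the unadjusted threshold. Ugt2b5 introns had 13.8, 20.8 and 38.9 FPKM in wild type and 17.9, 29.0 and 55.5 FPKM in Nono-/-, higher at 11 of 12 time points with a log2 difference of 0.53 ± 0.16 (adjusted p = 0.0258). Ugt2b35 had 5.80, 8.79 and 15.6 FPKM against 6.45, 12.3 and 28.3 FPKM (0.54 ± 0.18, adjusted p = 0.0436). Sult2a8 had 10.4, 28.8 and 41.4 FPKM against 19.3, 41.7 and 81.8 FPKM (0.57 ± 0.19, adjusted p = 0.0419), higher at 11 of 12 time points.

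For the glutathione S-transferases that fell in nuclear exons, nuclear introns gave Gstm1 -0.05 ± 0.14, Gstt1 0.01 ± 0.07, Gstt2 0.03 ± 0.16, Gstt3 -0.07 ± 0.13 and Mgst3 -0.07 ± 0.14. Gstm2 stood at -0.37 ± 0.16 (adjusted p = 0.113, lower at 10 of 12 time points) and Gstp1 at -0.57 ± 0.20 (adjusted p = 0.0537), and neither passed. The count of nuclear intron genes that rose was 0 without ZT2, ZT6, ZT18 or ZT20, 1 without ZT8 or ZT10 and 5 without ZT4. With intron share or the top 10 read share as a covariate it was 0, and with the latter Ugt2b35 turned to -0.14. Over all genes 401 rose with the former and 1 with the latter, against 953 with neither. With the time points as a block 5 rose and 2 fell, Mgst1 (0.30, adjusted p = 0.0386) and Ugt2b34 (0.45, 0.0312) joining the 3, and Gstp2 (-1.0045, 0.00348) and Gsta3 (-0.35, 0.0447) being the 2 that fell.

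**Figure D4:**
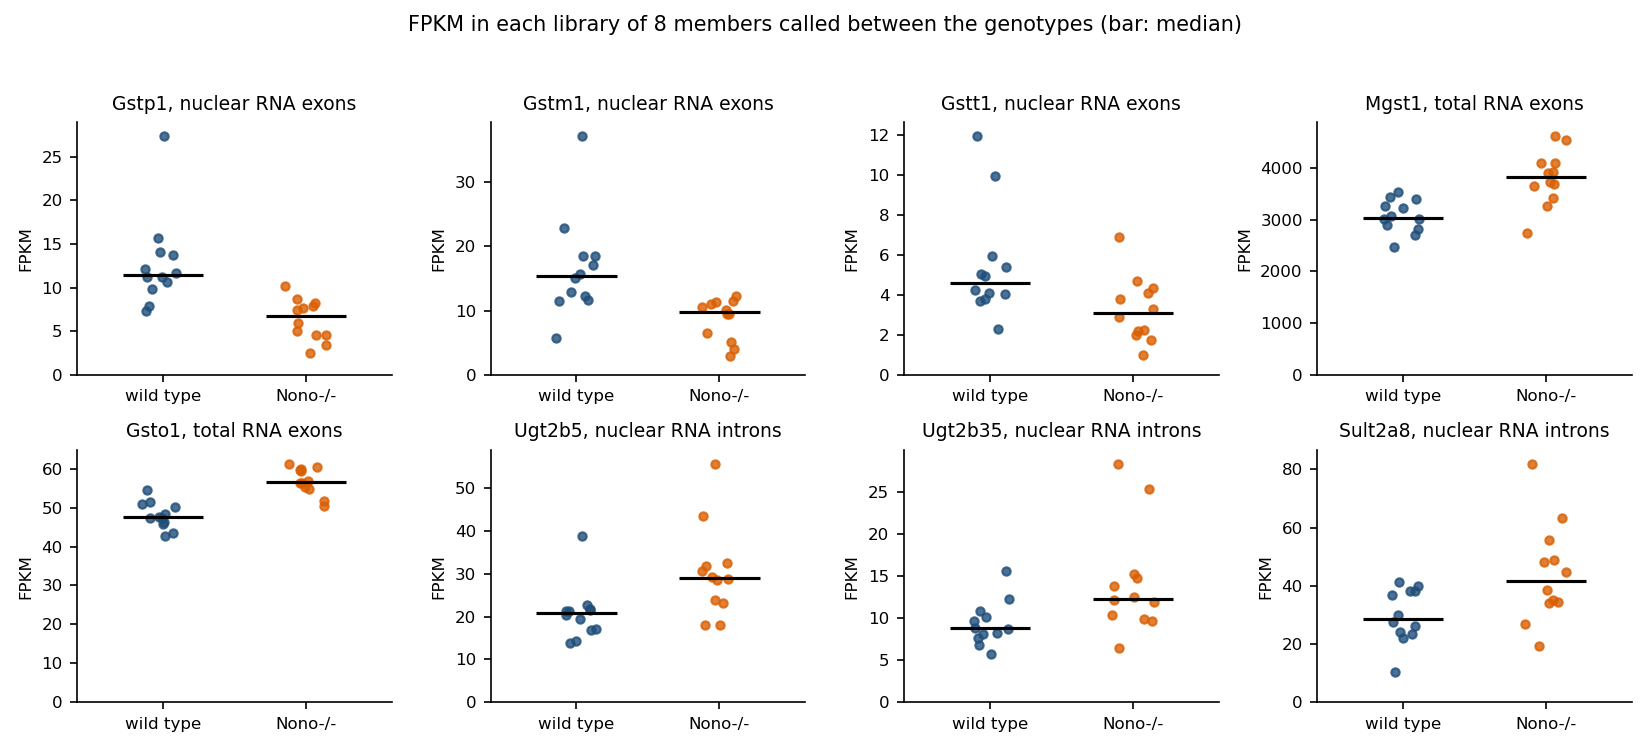
FPKM of 8 genes called between the genotypes, each point 1 library of 1 time point (12 a genotype), the bar the median, axes from 0. The groups overlap in every panel, as for Mgst1 at 2473 to 3539 FPKM in wild type and 2736 to 4617 FPKM in Nono-/-.

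In total RNA introns 11 of 40 genes rose and 1 fell, where 6.62% of all genes rose and 9.34% fell. Ugt2a3, Ugt2b5, Ugt2b1, Ugt2b35, Ugt2b34 and Ugt2b36 of the glucuronosyltransferases, Gsta2, Gstt2, Gsto1 and Gstz1 of the soluble transferases and Mgst1 rose, and Sult5a1 fell (-0.40 ± 0.12, adjusted p = 0.0327). Ugt2b5 had 7.36, 9.96 and 16.5 FPKM in wild type and 8.89, 11.7 and 16.8 FPKM in Nono-/-, higher at 10 of 12 time points before scaling, with a log2 difference of 0.48 ± 0.10 (adjusted p = 0.00297). Gsto1 (0.40 ± 0.08, adjusted p = 0.0039), Gstz1 (0.31 ± 0.07, adjusted p = 0.0046) and Mgst1 (0.34 ± 0.08, adjusted p = 0.00702) had also risen in total RNA exons. These 4 and Ugt2a3 held without any single time point.

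The level of these differences depends on the reference, because introns took fewer reads in Nono-/- total RNA. Gstz1 introns, with 3.47, 3.98 and 4.50 FPKM in wild type and 3.503, 4.12 and 4.50 FPKM in Nono-/-, were higher at 6 of 12 time points and lower at 6 as deposited, and rose relative to a median gene that was lower. Without scaling the median of all genes was -0.21, 0 conjugation genes rose and 9 fell, and 2.88% of all calls were higher against 41.5% with it. With intron share as a covariate 0 rose and 0 fell, and over all genes 25 rose and 35 fell, against 624 and 880 without it. Without ZT0 the count that rose was 5, without ZT18 6, and without ZT2, ZT12, ZT14 or ZT16 7, while Sult5a1 was lost without any 1 of 6 time points (ZT4, ZT8, ZT10, ZT12, ZT18 or ZT22). With the time points as a block Sult5a1 (adjusted p = 0.0593), Gsta2 (0.0603) and Ugt2b36 (0.0606) were not called, and Gstk1, the mitochondrial transferase (0.30, 0.0207), Gstm5 (0.66, 0.0352) and Sult2a8 (0.32, 0.0499) were.

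Exon signal of these genes was low in nuclear against total libraries when set beside the median of all genes, and hepatocyte markers shared this. In wild type their summed exon level had a median of 41330 FPKM in total and 1926 FPKM in nuclear RNA. Pericentral markers had 3850 and 209 FPKM, and periportal markers 1238 and 225 FPKM. The nuclear to total exon ratio compares FPKM of libraries scaled apart and is no share of a gene's RNA. As log2 of the unscaled FPKM it had a median of -3.37 over the 40 genes and of -1.21 over all 9871 genes in wild type, and 39 of the 40 lay below the median of all genes. In Nono-/- the medians were -3.74 and -1.44, again with 39 of 40 below. The Ugt1a locus supplies 8 of these, and without it 31 of 32 lay below in each genotype, with medians of -3.52 and -3.90. The exception in both was Sult5a1 at -0.78 and -1.12. By family the wild-type medians were -3.71 for soluble glutathione S-transferases, -4.13 for the 2 Mgst genes, -3.18 for glucuronosyltransferases and -2.30 for sulfotransferases.

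**Figure D5:**
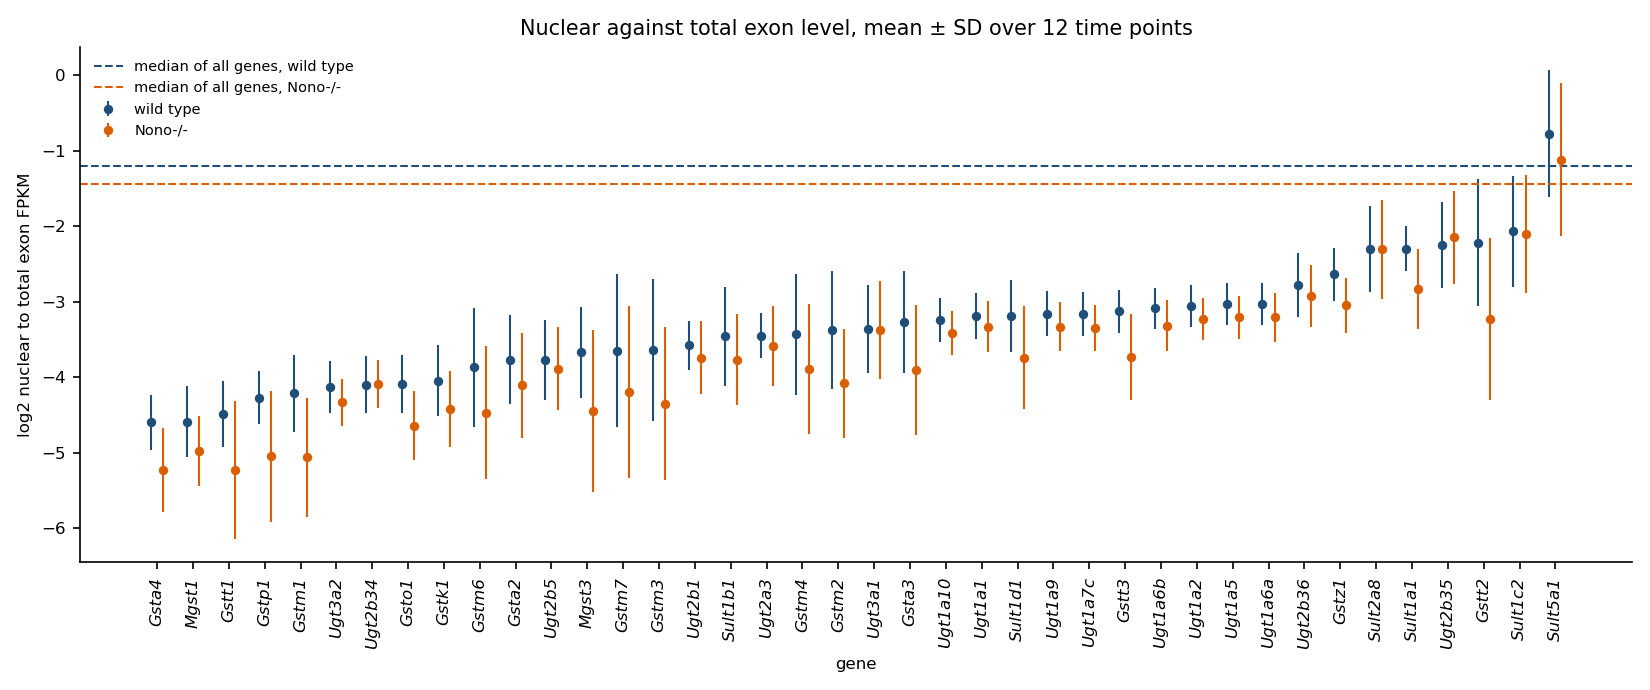
Log2 ratio of nuclear to total exon FPKM of 40 genes, mean ± SD over 12 time points, wild type in blue and Nono-/- in orange, with the median of all genes as dashed lines. All genes but Sult5a1 lie below the median of all genes of their genotype, -1.21 in wild type and -1.44 in Nono-/-.

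Tested on the same livers and relative to the median gene, the ratio fell in Nono-/- for 7 of 40 genes and rose for 0, where 9.19% of all genes fell and 10.4% rose, and 12 of the 40 had an unadjusted p under 0.05 in limma. No count over all genes was made at the unadjusted threshold. All 7 genes whose ratio fell were soluble glutathione S-transferases. Gstt2 had the largest fall, -0.78 ± 0.21 (adjusted p = 0.019), from a mean ratio of -2.22 in wild type to -3.23 in Nono-/-. Gstm1 fell by 0.62 ± 0.15 (adjusted p = 0.0138), from -4.21 to -5.06, and Gstp1 fell by 0.55 ± 0.15 (adjusted p = 0.0191), from -4.27 to -5.05. The means are unscaled and so hold the shift of the median gene.

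The other 4 were Gstt1 (-0.51 ± 0.16), Gstm3 (-0.51 ± 0.17), Gstm2 (-0.49 ± 0.15) and Gstt3 (-0.38 ± 0.11). Ugt2b genes had differences above 0 that did not pass, such as Ugt2b35 at 0.34 ± 0.19. Gstm1 was called without any single time point. The count was 1 without ZT22, the time of the wild-type nuclear library that stood apart, 2 without ZT8, 3 without ZT6 and 4 without ZT2, ZT12 or ZT20. Without scaling it was 15, with 7.27% of all calls higher against 53.1% with it, and it was 0 with either covariate of library makeup. Over all genes 5 rose and 0 fell with intron share, and 1 rose and 0 fell with the top 10 read share. With neither covariate 1027 rose and 907 fell. With the time points as a block Gstt2 (adjusted p = 0.0535) and Gstt1 (0.064) were not called, and Gsta3 was (-0.40, 0.0261).

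Genes that serve the conjugation enzymes were tallied beside the 4.45% of all genes that rose and the 6.48% that fell in total RNA exons. Of 16 genes that supply glutathione, UDP-glucuronic acid or active sulfate 0 rose and 1 fell in total RNA exons, Slc35d1, which carries UDP-sugars into the endoplasmic reticulum (-0.51 ± 0.12, adjusted p = 0.0138). Of 5 exporters of conjugates 1 rose, Abcg2 (0.39 ± 0.10, adjusted p = 0.0204), a pump of the canalicular membrane that also rose in nuclear introns (0.46 ± 0.09, adjusted p = 0.00388). Of 16 other conjugating and detoxification enzymes 2 rose, the histamine methyltransferase Hnmt (0.42 ± 0.12, adjusted p = 0.0252) and the quinone reductase Nqo1 (0.29 ± 0.08, adjusted p = 0.0301). Nqo1 was 1 of 6 tested NRF2 targets outside the families and the only 1 of them to pass in total RNA exons. In nuclear exons 0 of 16 supply genes rose and 4 fell, 1 of 4 exporters rose and 2 fell, and 2 of 14 other enzymes rose and 2 fell, where 15.7% of all genes rose and 18.6% fell. In total introns 1 of 15, 1 of 4 and 5 of 14 rose and 0 of each fell, where 6.62% and 9.34% of all genes did. In nuclear introns 1 of 16, 1 of 4 and 1 of 14 rose, and 2, 0 and 0 fell, where 7.91% of all genes rose and 10.2% fell.

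Of 13 regulators 0 rose and 3 fell in total RNA exons, where 4.45% and 6.48% of all genes did. In nuclear exons 0 rose and 4 fell, where 15.7% and 18.6% of all genes did. In total introns 1 rose and 3 fell (6.62% and 9.34% of all genes), and in nuclear introns 0 rose and 2 fell (7.91% and 10.2%). The 3 of total RNA exons were Hnf4a, a nuclear receptor that keeps hepatocyte genes active (-0.23 ± 0.07, adjusted p = 0.0339), Ppara (-0.28 ± 0.08, adjusted p = 0.0204) and the PAR bZip factor Hlf (-0.43 ± 0.10, adjusted p = 0.0121). Hnf4a also fell in nuclear introns (-0.61 ± 0.11, adjusted p = 0.00244). Genes of the receptors CAR and AhR, Nr1i3 and Ahr, had log2 differences of -0.02 ± 0.10 and -0.01 ± 0.10. The clock-driven Dbp swung 30.3-fold in wild type and 34.2-fold in Nono-/- total RNA exons with peaks at ZT10.4 and ZT10.9. The members of all these lists were named with earlier results of these data known.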

How the data were processed

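Liver RNA (48 libraries: 12 time points, 2 genotypes, total and nuclear RNA) was sequenced after ribosomal RNA depletion with a stranded kit, per the labels' protocols. The authors deposited FPKM over exons and over introns, made with HOMER and 1 condensed isoform a gene, per the file headers, which show no strand option. FastQC 0.11.2, STAR 2.4.0k and mm10 are named in the submitters' processing notes, with no version of HOMER.

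A gene was kept where its mean over the 24 libraries of a fraction reached 0.5 FPKM (exons) or 0.1 FPKM (introns). Scaling divided a library by its median ratio over genes never at 0, and log2(FPKM + 0.1) for exons or log2(FPKM + 0.05) for introns was fitted with limma 3.58.1 in R 4.3.3 (trend). Terms were genotype, a 24 h cosine and sine, and their products. The ratio was the log2 nuclear minus the log2 total exon value of the same time point. P-values were adjusted by Benjamini-Hochberg over all genes, threshold 0.05, and fold changes are on the scale with the pseudocount. Depth was inferred as the number of reads at which FPKM times exon length gave whole reads for genes with low values. Inferred depths of 9.91 M to 28.83 M reads limit the precision of genes under about 1 FPKM. The script was tested on simulated data. Promoters were RefSeq windows, transcripts were compared with blastn 2.17.0, and figures used Python 3.11.15, pandas 2.3.3, biopython 1.88 and matplotlib 3.10.9.

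That these families, as members, and the lists are described was chosen with earlier results of these data known, and the families' genes were then taken by symbol. Named in full were up to 5 members a family by wild-type level, up to 8 each way past the threshold in a comparison, and up to 10 by peak-to-trough fold. Same-numbered time points pair the genotypes by hour of collection: deviations from the group mean of pools of the same ZT were correlated above 0.1 in 12 of 12 pairs in total exons (0.143 to 0.563), total introns (0.144 to 0.542) and nuclear introns (0.259 to 0.654), and in 11 of 12 in nuclear exons (0.056 to 0.556). These deviations hold the daily rhythm. After the daily curve was taken out, 9, 7, 9 and 7 of 12 pairs were above 0.1 (in the order total exons, total introns, nuclear introns, nuclear exons, lowest -0.205), and 4 to 6 pools matched their own ZT best. Alternatives were no scaling, pseudocounts 10 times larger or smaller, a filter 4 times stricter or none, a block for each time point, intron share as a covariate, a 12 h term, each time point left out and, chosen after seeing the data, the exon read share of the 10 most read genes as a covariate.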

Additional observations from a re-analysis of the deposited data

Results flagged for a closer look

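For 7 soluble glutathione S-transferases the genotype difference in nuclear exons differed from that in total exons of the same livers, by the fit of the nuclear to total ratio (limma, adjusted over 9871 genes). The nuclear difference minus the total one, as log2, was -0.78 for Gstt2, -0.62 for Gstm1, -0.55 for Gstp1, -0.51 for Gstt1, -0.51 for Gstm3, -0.49 for Gstm2 and -0.38 for Gstt3. In total exons 0 of the 7 passed the genotype test, with Gstp1 at -0.26 ± 0.11 (adjusted p = 0.142) and Gstm1 at -0.08 ± 0.08 (adjusted p = 0.568). The 7 were among 40 genes tested, where 9.19% of all genes fell in the ratio. Without ZT22 the count was 1, Gstm1. With intron share or the top 10 read share as a covariate it was 0.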

How the results depend on the processing

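All counts are of conjugation genes called. With FPKM as deposited and no scaling, 10 rose in total exons, 0 rose and 12 fell in nuclear exons, 0 rose and 9 fell in total introns, and 15 fell in the ratio. Over all genes the calls that were higher then made up 58.6%, 10.1%, 2.88% and 7.27%, against 40.7%, 45.7%, 41.5% and 53.1% with scaling. With each time point as a block, which pairs the genotypes, 9 rose in total exons, 6 rose and 9 fell in nuclear exons, 12 rose and 0 fell in total introns, 5 rose and 2 fell in nuclear introns, and 6 fell in the ratio. With intron share as a covariate 0 rose in exons or introns of either RNA, 2 fell in nuclear exons, 0 fell in total introns and 0 fell in the ratio. With the top 10 read share as a covariate 0 rose and 0 fell in nuclear exons, 0 rose in nuclear introns and 0 fell in the ratio. Calls over all genes dropped as well: 39 rose and 34 fell in total exons with intron share. With the top 10 read share 0 rose and 4 fell over all genes in nuclear exons. The filter 4 times stricter gave 4 that fell in nuclear exons, 4 in the ratio and 0 in total introns. No filter gave 7 that rose and 0 that fell in total introns and 6 rhythms in wild-type total exons. The smaller pseudocount gave 1 that fell in nuclear introns. With 24 h and 12 h terms there were 5 rhythms in wild-type total exons and 12 in Nono-/- nuclear introns. The difference in rhythm passed for 0 genes under every setting tried for rhythms.

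Leaving out 1 time point at a time gave 3 to 6 that rose and 0 to 0 that fell in total exons, 1 to 6 that rose and 3 to 8 that fell in nuclear exons, 5 to 11 and 0 to 1 in total introns, 0 to 5 and 0 to 1 in nuclear introns, and 0 to 0 and 1 to 8 in the ratio. Rhythm counts were 5 to 12 (wild type) and 7 to 13 (Nono-/-) in total exons, and 13 to 20 and 13 to 26 in nuclear introns. With the top 10 read share as a covariate 11 differences changed sign, with adjusted p of 0.902 to 0.999: in nuclear exons Gstt1 0.060, Sult2a8 -0.11, Ugt2b34 -0.035, Gstm1 0.050, Mgst3 0.19, Gstm2 0.063, Gstt2 0.23, Ugt2b36 -0.018 and Ugt2b35 -0.098, in nuclear introns Ugt2b35 -0.14 and in the ratio Gstt1 0.012. The causes were not tested. Of 39 genotype calls of single genes 0 held under every setting tried for genotype and 11 held without each time point in turn. Of 19 rhythm calls in total exons 11 held under every setting tried for rhythms, and of 37 in nuclear introns 24. Rhythms were not tried with the time points as a block or with either covariate, and genotype differences not with the 12 h term. Depth limits genes under about 1 FPKM, such as Mgst3 in nuclei and the nuclear introns of Gstm7, Gstm3 and Gstm6 at their lowest.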

Other observations

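Sult1e1, the oestrogen sulfotransferase, was below the filter and was singled out after its values were seen. Its exons lay between 0 and 0.157 FPKM in the 12 wild-type and between 0.043 and 2.75 FPKM in the 12 Nono-/- total RNA libraries, with medians of 0.0385 and 0.273 FPKM. The highest value was that of the ZT12 pool, whose nuclear library also had the group's highest Sult1e1 exon and intron values, 0.800 and 0.262 FPKM. With no filter on the mean, the log2 difference in total exons was 1.41 ± 0.32 (limma, adjusted p = 0.0172) and in nuclear exons 0.13 ± 0.24 (adjusted p = 0.743).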
